A study of Mus musculus with 12 samples.

Results

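Potassium channel genes were followed through cultures of mouse cortical neurons that had been scratched with a needle, with or without transforming growth factor β1 (TGF-β1). A gene was included when the deposited table classed it as protein_coding and its symbol began with Kcn, followed by letters and a number. This rule held 93 genes of the 21926 protein_coding genes and 55901 genes in all. Of these, 67 had a mean of at least 0.5 FPKM (fragments counted on a gene, divided by its exon length and by the depth of the library) over the 12 libraries and were tested, and the other 26 were not. Neurons came from the cortex of C57BL/6J mice born less than 1 day earlier, were exposed to arabinosylcytosine for 24 h on day 1 to limit dividing glia, and were used after 7 days in culture. All 3 groups of 4 libraries shared this strain and preparation. Control cultures were not scratched, Trauma cultures were scratched and collected after 24 h, and Trauma+TGF-β1 cultures (labelled Tra_TGF) were scratched and kept with TGF-β1 at 10 ng/mL for 24 h. No group held TGF-β1 without a scratch, and the labels do not say whether the 4 libraries of a group came from separate cultures, so that the p-values measure the spread between these libraries.

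Potassium channels let potassium leave or enter the cell, which sets the resting potential of a neuron, ends its action potentials and limits its firing. Voltage-gated channels (Kv) open on depolarisation and are built from pore subunits, from silent subunits that form no channel of their own but join others, and from accessory subunits that change gating or traffic to the membrane. Inward rectifiers (Kir) and two-pore leak channels (K2P) act near the resting potential, and calcium- or sodium-gated channels link potassium flow to the entry of those ions. In the cortex most of these genes are known as neuronal, whereas the inward rectifier gene Kcnj10 is known as the main potassium channel of astrocytes, which clear potassium released by firing neurons.

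Each library had between 15052486 and 17381671 reads on genes, and a tested potassium channel gene had 24 to 9903 reads in a library. One Control library, replicate 1, stood apart, with 22124 genes detected where the other 11 libraries had 23362 to 24508, and the counts below are also given without it. Where 3 sets of values are given, the last, written as with TGF-β1, belongs to the Trauma+TGF-β1 group. The share of reads on mitochondrial genes was 2.12% to 2.97% in Control, 2.17% to 2.30% in Trauma and 2.69% to 3.23% with TGF-β1. The 2.97% was that of Control library 1, and the other Control libraries had 2.12% to 2.36%. Apart from that library, every TGF-β1 library lay above every Control and Trauma library. Levels below are FPKM after scaling by factors between 0.995 and 1.01, so that they can be compared between genes as levels per length. Fold changes are limma estimates on the log2(FPKM + 0.1) scale, with their standard error (SE), and adjusted p-values are Benjamini-Hochberg values over all 15016 genes tested in a comparison. A gene was called where that value did not exceed 0.05. The 3 comparisons share libraries in pairs and are not independent of each other.

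Kcnj10 was the most abundant potassium channel gene, with a mean of 66.0 FPKM over the 12 libraries. Kcnj4, an inward rectifier of forebrain neurons, had 33.3 FPKM. Kcnk9 (a two-pore leak channel) had 20.9 FPKM, Kcnd2 (the Kv4.2 pore of the fast A-type current) 18.7 FPKM, Kcnh3 (a Kv12 pore) 18.3 FPKM, the silent subunit gene Kcnf1 18.0 FPKM and the Kv beta subunit gene Kcnab2 17.2 FPKM. The 17 subfamilies each held at least 1 tested gene. The 30 voltage-gated pore genes, tested or not, had the largest summed level of the 6 classes, which was 228 FPKM in Control, 214 in Trauma and 212 with TGF-β1. The summed level of the 15 inward rectifier genes was 127, 139 and 151 FPKM in the same order, and that of the 16 accessory subunit genes was 73.1, 67.8 and 65.5 FPKM. These sums are descriptions without a test.

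**Figure D1:**
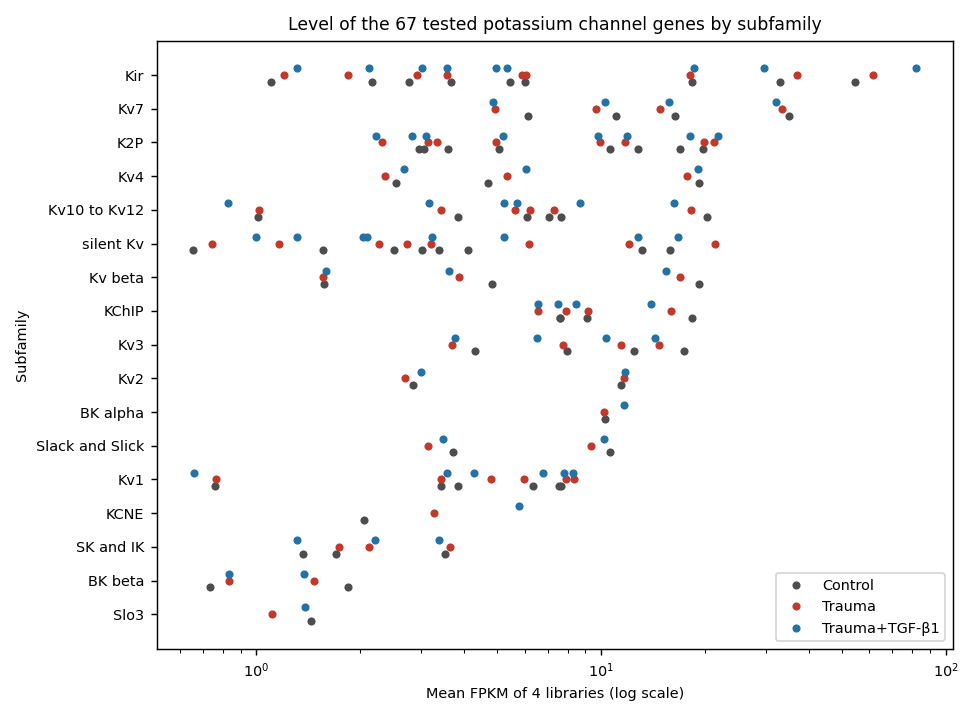
Mean FPKM of 4 libraries (log scale) for each of the 67 tested potassium channel genes, in rows by subfamily, with 1 point per gene and group. The points of the groups lie close together within most rows. Kcnj10, the rightmost point of the Kir row, lies at 54.5 FPKM in Control, 61.6 in Trauma and 82.1 with TGF-β1, and Kcne1l, the point of the KCNE row, at 2.05, 3.27 and 5.77.

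The 26 genes under the filter were low in every library, with at most 34 reads. They included 4 of the 5 KCNE genes (Kcne1, Kcne2, Kcne3 and Kcne4), 6 of the 14 two-pore genes and 6 of the 15 inward rectifier genes. Of the 26, 10 had no more than 3 reads in any library. The lowest tested genes were Kcna5, Kcnmb2 and Kcng3, with 0.726, 0.798 and 0.799 FPKM, and the highest of the others were Kcnj14, Kcnh6 and Kcng4, with 0.360, 0.335 and 0.301 FPKM.

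Scratch injury was followed by called changes in 10 of the 67 tested genes. Trauma was above Control for 6 (Kcne1l, Kcng1, Kcnf1, Kcna1, Kcnip3 and Kcnj10) and below it for 4, among them Kcnab3, Kcnc1 and Kcnq3. This was 14.9% of the tested members in the limma fit, where 5.82% of all genes tested were called (3.5% up and 2.32% down). All members are protein_coding, and the genes tested include other classes. In a fit of the 12078 tested protein_coding genes alone, 7 members were called up and 5 down, among 657 and 399 genes called. No member changed by 1 or more on the log2 scale. The 4 Trauma libraries lay entirely above the 4 Control libraries for 8 members and entirely below them for 9, against 6.87% and 5.93% of all genes tested, 12.8% in both directions. The median log2 fold change was -0.07 over the 67 members and -0.0024 over all genes tested, and 44 of the 67 values were below 0. Without Control library 1, the calls were 3 up and 5 down. Over all genes tested they were then 490 up and 347 down, against 526 and 348 in the main fit. The split also moved with the correction of each library for GC content, to 6 up and 7 down (588 and 533 over all genes tested). With voom on the recovered reads it was 9 up and 2 down (862 and 286).

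Trauma+TGF-β1 differed from Trauma at 9 of the 67 tested genes. Kcne1l, Kcnj10, Kcnh7, Kcnma1 and Kcna6 were higher with TGF-β1, and Kcnip3, Kcnf1, Kcnj4 and Kcnc4 were lower. These 9 were 13.4% of the members, near the 12.3% called among all genes tested (4.64% up and 7.63% down). In the fit of the 12078 protein_coding genes alone, 5 members were called up and 5 down, among 821 and 1355 genes called. The libraries of the groups did not overlap for 7 members higher with TGF-β1 and 7 lower, where 10.6% and 11.8% of all genes tested did so, 22.3% in both directions. The median log2 fold change was 0.012 over the members and 0.0052 over all genes tested. With the correction for GC content 5 calls were left, 3 up and 2 down, and with that for gene length the split was 3 up and 4 down. Over all genes tested the calls moved from 696 up and 1146 down to 341 and 596 and to 439 and 799. Without Control library 1, which changes the shared spread in the fit, the calls were 5 up and 6 down. They were then 1030 up and 1524 down over all genes tested.

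Trauma+TGF-β1 differed from Control at 18 of the 67 tested genes, 5 higher and 13 lower. Higher were Kcne1l, Kcnj10, Kcnd3, Kcnma1 and Kcnk9. Among the lower were Kcnk4, Kcnmb4, Kcnab3, Kcnip2, Kcnh3, Kcnab2, Kcnh2, Kcnc4, Kcnc1 and Kcnip3. The 26.9% of members called stood beside 16.3% of all genes tested (6.85% up and 9.46% down). In the fit of the 12078 protein_coding genes alone, 6 members were called up and 14 down, among 1165 and 1584 genes called. Non-overlapping libraries were found for 8 members above and 13 below, against 8.64% and 9.38% of all genes tested, 18% in both directions. The median log2 fold change was -0.055 over the members and 0.0031 over all genes tested. Without Control library 1 the split was 7 up and 14 down. Over all genes tested it was then 1485 up and 1937 down, against 1029 and 1420 in the main fit. The split of the members was 5 up and 7 down with the GC correction, 8 up and 11 down with voom, and 3 up and 14 down with FPKM as deposited. Over all genes tested these settings gave 861 and 973, 1677 and 1223, and 922 and 1565. Across the 3 comparisons 25 of the 67 tested members (37.3%) were called at least once and 42 never, where 23.3% of all 15016 genes tested were called at least once. Kcne1l, Kcnj10 and Kcnip3 were called in all 3, and the first 2 were higher in each.

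**Figure D2:**
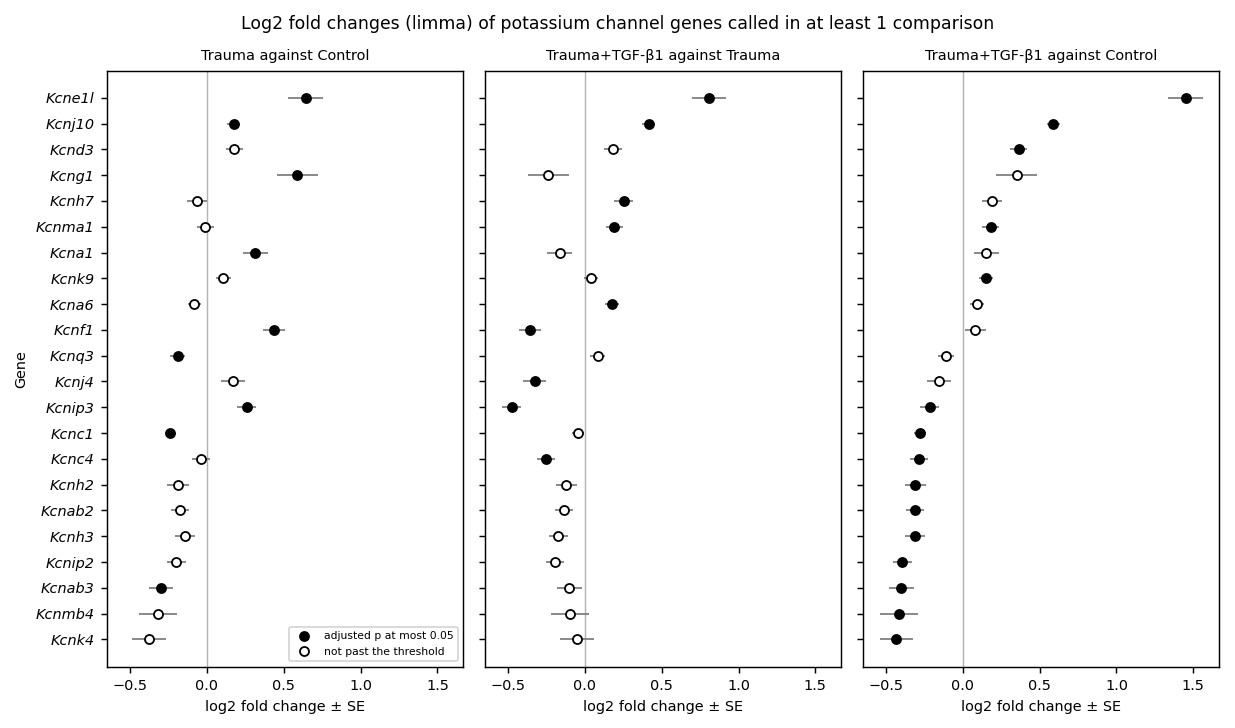
Log2 fold change with its SE (horizontal bars) of potassium channel genes called in at least 1 comparison, with 1 panel per comparison and genes ordered by Trauma+TGF-β1 against Control. Filled points were called (adjusted p not above 0.05, limma) and open points were not. Kcne1l lies furthest to the right in each panel (0.64, 0.81 and 1.45), and Kcnip3 and Kcnf1 lie right of 0 in the first panel and left of 0 in the second.

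Kv3 channels let neurons fire at high rates, since they open and close quickly at positive potentials. Kcnc1 (Kv3.1) had 17.1, 17.1, 17.4 and 17.7 FPKM in the Control libraries, 15.0, 14.5, 15.0 and 14.4 in Trauma, and 13.9, 14.0, 15.3 and 14.0 with TGF-β1. All 8 injured libraries lay below all 4 Control libraries, while the injured groups overlapped. It fell by 0.24 on the log2 scale (SE 0.04, adjusted p = 0.0041, limma) in Trauma against Control and by 0.28 (SE 0.04, adjusted p = 0.00085) in Trauma+TGF-β1 against Control. The log2 fold change between the injured groups was -0.04 (adjusted p = 0.50). Kcnc4 (Kv3.4) took another course, with 7.24, 8.35, 7.75 and 8.59 FPKM in Control, 7.93, 7.27, 7.82 and 8.04 in Trauma and 6.60, 6.57, 6.65 and 6.24 with TGF-β1. Control and Trauma overlapped, and all 4 TGF-β1 libraries were below both. Kcnc4 fell by 0.25 (SE 0.06, adjusted p = 0.0207) with TGF-β1 against Trauma and by 0.29 (SE 0.06, adjusted p = 0.0076) against Control. Kcnc2 (Kv3.2), with means of 4.29, 3.69 and 3.77 FPKM, was not called in any comparison. After the correction for GC content, Kcnc1 kept its calls at -0.26 and -0.16, while Kcnc4 had -0.07 against Trauma and -0.12 against Control (adjusted p = 0.549 and 0.229). With the replicate number as a block beside that correction, the Kcnc1 call in Trauma+TGF-β1 against Control was lost (adjusted p = 0.0554). Kcnc4 lost its call against Trauma without Trauma library 1 or 4 or Trauma+TGF-β1 library 2 or 4 (adjusted p = 0.0524 to 0.0617).

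**Figure D3:**
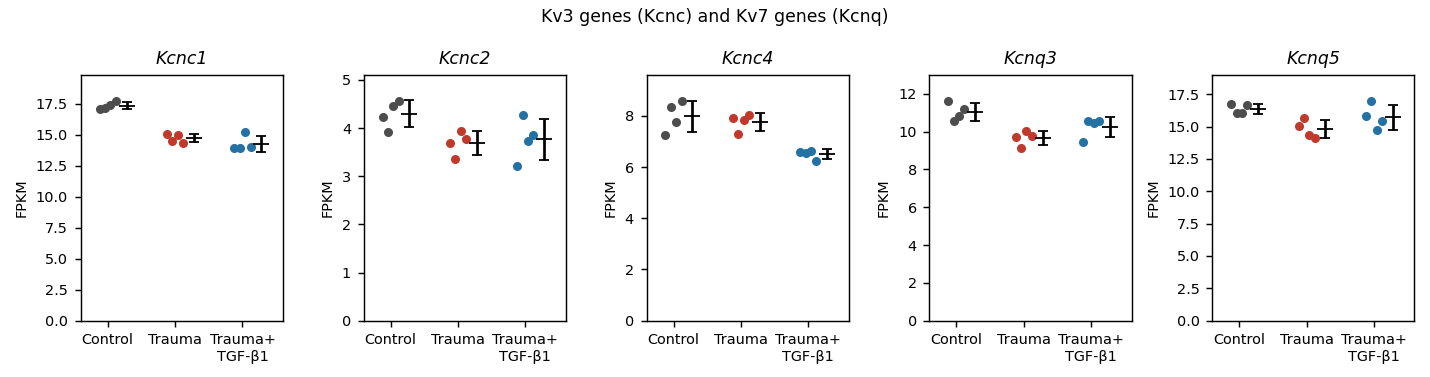
FPKM of the Kv3 genes Kcnc1, Kcnc2 and Kcnc4 and the Kv7 genes Kcnq3 and Kcnq5 in each library, with the mean and SD of each group to the right of its points. Kcnc1 is lower in both injured groups than in Control (17.4, 14.7 and 14.3 FPKM), whereas the step of Kcnc4 lies between Trauma (7.77) and Trauma+TGF-β1 (6.51).

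Kv7 subunits carry the M-current, a slow potassium current that damps repeated firing and is shut by muscarinic receptors. Kcnq3, whose product forms neuronal M-channels, had 11.6, 10.5, 10.8 and 11.2 FPKM in Control, 9.72, 9.13, 10.1 and 9.77 in Trauma and 9.48, 10.6, 10.4 and 10.6 with TGF-β1. It fell by 0.19 (SE 0.05, adjusted p = 0.0478) in Trauma, below every Control library, and the TGF-β1 libraries overlapped both other groups. Kcnq5, with means of 16.4, 14.8 and 15.7 FPKM, was not called in any comparison. The Kcnq3 call was lost without any single library other than Control 2 and Trauma+TGF-β1 1 (adjusted p = 0.0609 to 0.131).

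Kv1 channels sit along axons and set the threshold for firing. Kcna1 (Kv1.1) had 3.41, 3.72, 3.76 and 4.45 FPKM in Control, 4.94, 4.69, 4.87 and 4.61 in Trauma and 4.05, 4.25, 4.73 and 4.04 with TGF-β1. All Trauma libraries lay above all Control libraries, and the third group overlapped both. Kcna1 rose by 0.32 (SE 0.08, adjusted p = 0.0409) in Trauma, a call that was lost without any single library other than Control 4 and Trauma+TGF-β1 3 (adjusted p = 0.0522 to 0.1). Kcna6 (Kv1.6) had 5.73 to 6.19 FPKM in Trauma and 6.71 to 6.84 with TGF-β1 and rose by 0.18 (SE 0.04, adjusted p = 0.0254) between them. It lost the call without Trauma library 2, 3 or 4 or Trauma+TGF-β1 library 2 or 4 (adjusted p = 0.0556 to 0.0653), and 39.6% of its exon bases lie opposite those of the gene Gm26673, which had a mean of 0.027 FPKM. Kcna2 (Kv1.2), the Kv1 gene with the highest level, had means of 7.67, 7.91 and 8.30 FPKM and was not called in any comparison. No Kv1 gene was called lower in any comparison, and 4 of the 6 tested were not called at all. Of all genes tested, 2.32%, 7.63% and 9.46% were called lower in the 3 comparisons, and 23.3% were called at least once. Counts from 6 genes are too small to read as differences from these shares.

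Kv4 channels carry the A-type current, which delays the first spike and shapes signals in dendrites. Kcnd3 (Kv4.3) had 4.67, 4.45, 4.60 and 5.06 FPKM in Control, 5.39, 5.36, 5.20 and 5.35 in Trauma and 5.80, 6.51, 5.73 and 6.24 with TGF-β1. The 3 groups followed each other without overlap. Only Trauma+TGF-β1 against Control passed the threshold, with a rise of 0.36 (SE 0.06, adjusted p = 0.0019), and each of the steps between had a log2 fold change of 0.18 (adjusted p = 0.0955 and 0.0553). The Kcnd3 call was kept under every alternative. Kcnd2, the Kv4 gene with the highest level, had means of 19.2, 17.7 and 19.0 FPKM and was not called.

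Among the Kv10 to Kv12 genes, relatives of the fly ether-à-go-go channel, 3 of 6 tested were called in at least 1 comparison, against 23.3% of all genes tested, and a count of 3 is too small to read as a difference from that share. Kcnh3 had 17.6, 20.8, 21.9 and 20.6 FPKM in Control, 18.3, 17.2, 18.7 and 18.9 in Trauma and 15.9, 15.4, 17.3 and 16.3 with TGF-β1. Kcnh2 (Kv11.1, the hERG channel, which also repolarises the heart) had 6.83 to 7.28 FPKM in Control, 5.58 to 6.93 in Trauma and 5.32 to 6.09 with TGF-β1. The lowest Control library lay above the highest Trauma+TGF-β1 library for both genes. Each fell by 0.31 in Trauma+TGF-β1 against Control (adjusted p = 0.0079 for Kcnh3 and 0.0121 for Kcnh2). Kcnh7 (Kv11.3) moved the other way, from 6.98 to 7.67 FPKM in Trauma to 8.42 to 9.15 in Trauma+TGF-β1, and rose by 0.25 between them (SE 0.06, adjusted p = 0.0264). None of these calls was kept with the GC correction, where the values were -0.10 for Kcnh3, -0.09 for Kcnh2 and 0.10 for Kcnh7 (adjusted p = 0.169, 0.560 and 0.250). The call of Kcnh7 was also lost with the gene length correction (0.13, adjusted p = 0.126) and without Trauma library 2 or 4 or Trauma+TGF-β1 library 2 or 4 (adjusted p = 0.0590 to 0.0791). Beyond these, 4.57% of the exon bases of Kcnh7 lie opposite exons of Gca, at 2.22 FPKM, and the sources used here do not state whether the counting used strand.

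Silent subunits pair with Kv2 subunits and shift the voltage at which the joint channel works. Kcnf1 (Kv5.1, ENSMUSG00000051726, chr12:17172100-17176888) had 15.2, 18.4, 14.5 and 15.2 FPKM in Control, 20.2, 21.3, 22.9 and 21.1 in Trauma and 17.9, 16.6, 16.3 and 16.0 with TGF-β1. Trauma lay above both other groups in every library, and these other groups overlapped. Kcnf1 rose by 0.44 (SE 0.07, adjusted p = 0.0036) in Trauma against Control and fell by 0.36 (SE 0.07, adjusted p = 0.0126) in Trauma+TGF-β1 against Trauma. In Trauma+TGF-β1 against Control its log2 fold change was 0.08 (SE 0.07, adjusted p = 0.46). Kcng1 (Kv6.1) had 4.91, 4.54, 3.59 and 3.37 FPKM in Control, 6.70, 6.64, 5.83 and 5.52 in Trauma and 6.45, 4.77, 5.01 and 4.74 with TGF-β1. Its Trauma libraries lay above all Control libraries, and it rose by 0.59 (SE 0.13, adjusted p = 0.0227). Its log2 fold change with TGF-β1 against Trauma was -0.24 (adjusted p = 0.26). The Kcng1 call was lost without Control library 3 or 4 or Trauma library 1 or 2 (adjusted p = 0.0602 to 0.0689), and the Kcnf1 calls were kept with each library left out. With the GC correction, Kcnf1 had -0.27 in Trauma+TGF-β1 against Trauma (adjusted p = 0.0398). That call was lost with the GC correction and the replicate number as a block (adjusted p = 0.0618). The remaining 6 of the 8 tested silent subunit genes were not called in any comparison. The share called at least once was thus near the 23.3% of all genes tested.

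Of the 9 tested inward rectifier genes, 2 were called in at least 1 comparison, a share near the 23.3% of all genes tested. Kcnj10 (Kir4.1, ENSMUSG00000044708, chr1:172341210-172374085) had 53.6, 55.0, 52.8 and 56.8 FPKM in Control, 58.2, 62.2, 64.7 and 61.2 in Trauma and 77.2, 86.2, 80.6 and 84.6 with TGF-β1. The 3 groups followed each other without overlap. Kcnj10 rose by 0.17 (SE 0.04, adjusted p = 0.0385) in Trauma against Control, by 0.42 (SE 0.04, adjusted p = 0.0013) in Trauma+TGF-β1 against Trauma and by 0.59 (SE 0.04, adjusted p = 1.15e-05) in Trauma+TGF-β1 against Control. The first of these calls was lost without any single library other than Control 4, Trauma 1 and Trauma+TGF-β1 1 and 2 (adjusted p = 0.0502 to 0.110), and the other calls were kept under every alternative. Kcnj4 (Kir2.3) had 39.2, 37.2, 34.6 and 37.4 FPKM in Trauma and 32.0, 28.6, 30.8 and 27.0 with TGF-β1, with 29.6 to 36.6 in Control. It fell by 0.33 (SE 0.08, adjusted p = 0.0213) with TGF-β1 against Trauma. The value was -0.15 with the GC correction (adjusted p = 0.132) and -0.23 with the gene length correction (adjusted p = 0.0527). The Kcnj4 call was also lost without Trauma library 1, 2 or 4 or Trauma+TGF-β1 library 2 or 4 (adjusted p = 0.0545 to 0.0634). Neither the G-protein-gated Kir3 genes (Kcnj3, Kcnj6 and Kcnj9) nor Kcnj16, whose product joins that of Kcnj10 in astrocytes, passed the threshold. Their names are given because of these roles and were chosen after the values were seen.

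Astrocyte marker genes moved with injury as Kcnj10 did, and their part in its changes was not tested. All 10 listed astrocyte markers were tested, none was at 0, and their summed level was 217 to 246 FPKM in Control, 278 to 342 in Trauma and 293 to 315 with TGF-β1. The sum was 83.5 FPKM higher in Trauma than in Control and 65.7 higher in Trauma+TGF-β1 than in Control (two-sided exact permutation test, p = 0.0286 for each, the smallest that 4 libraries against 4 allow, and 0.0429 after adjustment over 6 tests). Between the injured groups it was 17.8 FPKM lower with TGF-β1 (exact permutation p = 0.257, adjusted p = 0.257, with differences of -31.2 to -9.96 FPKM when a library was left out), while Kcnj10 was higher in all 4 TGF-β1 libraries. The single markers went in several directions there, with 1 called up (Aqp4, the astrocyte water channel, at 0.32) and 3 called down, among them Aldh1l1 at -0.50. Against Control, 8 of the 10 were called up in Trauma and 5 with TGF-β1, and none was called down. The defining marker Gfap had means of 47.4, 87.4 and 97.4 FPKM, so that the cultures labelled as neurons held astrocyte RNA in every group. The other 9 astrocyte markers together were 43.5 FPKM higher in Trauma and 15.7 FPKM higher in Trauma+TGF-β1 than in Control (exact permutation p = 0.0286 for each, adjusted p = 0.0429), and 27.8 FPKM lower with TGF-β1 than in Trauma (p = 0.0571, adjusted p = 0.0571). In these bulk libraries, more cells of a type and more RNA per cell cannot be told apart.

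The summed level of neuron markers was lower in both injured groups than in Control, and most of the difference lay in Tubb3, a neuronal tubulin. The 10 listed genes were all tested and summed to 1640 to 1690 FPKM in Control, 1438 to 1542 in Trauma and 1403 to 1445 with TGF-β1. The sum fell by 174 FPKM in Trauma and fell by 243 FPKM in Trauma+TGF-β1, each against Control (exact permutation p = 0.0286, adjusted p = 0.0429). Between the injured groups it was 68.7 FPKM lower with TGF-β1 (exact permutation p = 0.0571, adjusted p = 0.0686). Tubb3 had means of 955 FPKM in Control, 844 in Trauma and 741 with TGF-β1. The other 9 neuron markers together fell by 63.0 FPKM in Trauma against Control (exact permutation p = 0.0286, adjusted p = 0.0429) and were 29.3 FPKM lower in Trauma+TGF-β1 than in Control (p = 0.0571, adjusted p = 0.0571). Between the injured groups these 9 were 33.7 FPKM higher with TGF-β1 (exact permutation p = 0.0286, adjusted p = 0.0429), the opposite direction to the sum of all 10. The sums without Gfap and without Tubb3 were chosen after seeing the data, and their p-values are adjusted over 6 tests. Of the neuron markers, 4 were called down and 1 up in each comparison with Control, and 3 were called up and 1 down with TGF-β1 against Trauma. The part of these shifts in the lower levels of Kcnc1, Kcnc4 and Kcnq3 was not tested.

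Two-pore channels carry the leak current that holds the resting potential. Kcnk4 (TRAAK, which opens on stretch of the membrane) had 3.15, 2.43, 3.56 and 3.10 FPKM in Control, 2.20, 2.56, 2.16 and 2.34 in Trauma and 2.45, 2.19, 2.22 and 2.05 with TGF-β1. It fell by 0.43 (SE 0.11, adjusted p = 0.0216) in Trauma+TGF-β1 against Control, and Trauma against Control gave -0.38 (SE 0.11, adjusted p = 0.069). Its call was lost without Control library 3 or Trauma+TGF-β1 library 2 or 4 (adjusted p = 0.0561 to 0.0666), and 13.1% of its exon bases are shared with Catsperz on the same strand. Kcnk9 (TASK-3, an acid-sensitive leak channel) had means of 19.7, 21.3 and 21.9 FPKM and rose by 0.15 (SE 0.05, adjusted p = 0.0478) in Trauma+TGF-β1 against Control. This call was lost with the GC correction (0.12, adjusted p = 0.122), with the gene length correction (0.07, adjusted p = 0.357), and without any single library other than Control 4 and Trauma 2 and 4 (adjusted p = 0.0633 to 0.130). The other 6 of the 8 tested two-pore genes were not called in any comparison, so that the share called was again near the 23.3% of all genes tested.

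Calcium- and sodium-gated channels shape the afterhyperpolarisation that follows a spike. Kcnma1, the pore of the BK channel, had 11.4, 9.83, 9.48 and 10.3 FPKM in Control, 10.0, 10.2, 10.4 and 10.1 in Trauma and 11.7, 12.1, 11.1 and 11.8 with TGF-β1. It rose by 0.19 (SE 0.06, adjusted p = 0.0423) with TGF-β1 against Trauma and by 0.18 (SE 0.06, adjusted p = 0.0428) against Control, where Control library 1 overlapped the TGF-β1 libraries. Both calls were lost with the GC correction (0.13 and 0.12) and the gene length correction (0.06 and 0.07). The call against Trauma was also lost without any single library other than Control 1, 2 and 3 and Trauma+TGF-β1 3 (adjusted p = 0.0557 to 0.117), and that against Control without any other than Control 1 and Trauma+TGF-β1 3 (adjusted p = 0.0567 to 0.118). Kcnmb4, the neuronal beta subunit of the BK channel, had 1.73 to 1.96 FPKM in Control, 1.31 to 1.70 in Trauma and 1.16 to 1.62 with TGF-β1. It fell by 0.42 (SE 0.12, adjusted p = 0.0395) in Trauma+TGF-β1 against Control. That call was lost with the gene length correction (-0.38, adjusted p = 0.0529) and without any single library other than Control 1, Trauma 1 and 3 and Trauma+TGF-β1 3 (adjusted p = 0.0516 to 0.110). In addition, 20.8% of its exon bases lie opposite those of Kcnmb4os2, at 1.41 FPKM. The small-conductance channel gene Kcnn2 (means of 3.53, 3.65 and 3.40 FPKM) and the sodium-gated Kcnt1 (10.6, 9.37 and 10.2) were not called. Neither was Kcnu1 (1.44, 1.11 and 1.38), which encodes the Slo3 channel of sperm and was grouped here by its symbol, not by its gating.

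The largest relative change of any tested member was that of Kcne1l, also called Kcne5, an X-linked gene for a single-pass accessory subunit that joins voltage-gated pores and reduces their current. The gene (ENSMUSG00000090122) lies at chrX:142304752-142306294 of build mm10. It had 1.76, 2.08, 2.22 and 2.14 FPKM in Control, 2.95, 3.38, 3.94 and 2.81 in Trauma and 5.12, 6.42, 6.03 and 5.52 with TGF-β1. These are 42 to 55, 75 to 107 and 120 to 154 reads per library, and the groups followed each other without overlap. Kcne1l rose by 0.64 (SE 0.11, adjusted p = 0.0063) in Trauma against Control, by 0.81 (SE 0.11, adjusted p = 0.0039) in Trauma+TGF-β1 against Trauma and by 1.45 (SE 0.11, adjusted p = 1.53e-05) in Trauma+TGF-β1 against Control. All these calls were kept under every alternative. It was the only tested KCNE gene.

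KChIP proteins are calcium sensors that bind Kv4 pores and bring them to the membrane, and the product of Kcnip3 (KChIP3, also known as DREAM and calsenilin) is in addition known as a transcriptional repressor. Kcnip3 (ENSMUSG00000079056, chr2:127456498-127522094) had 6.83, 7.95, 8.05 and 7.65 FPKM in Control, 8.41, 9.44, 9.03 and 9.69 in Trauma and 6.44, 6.68, 6.30 and 6.77 with TGF-β1. Trauma was above Control, and Trauma+TGF-β1 below both, without overlap. Kcnip3 rose by 0.26 (SE 0.06, adjusted p = 0.0297) in Trauma, fell by 0.47 (SE 0.06, adjusted p = 0.0030) with TGF-β1 against Trauma and fell by 0.21 (SE 0.06, adjusted p = 0.0358) with TGF-β1 against Control. The second of these was kept under every alternative. The first was lost without Control library 1 or 4 or Trauma library 2, 3 or 4 (adjusted p = 0.0520 to 0.0968). The third was lost with the GC correction (-0.14, adjusted p = 0.111), the gene length correction (-0.19, adjusted p = 0.0525) and voom (adjusted p = 0.113), and without any single library other than Control 1 and Trauma 1, 2 and 4 (adjusted p = 0.0502 to 0.101). Kcnip2 (KChIP2) stepped down, with 16.4, 19.1, 19.0 and 19.0 FPKM in Control, 15.0, 15.7, 17.4 and 15.9 in Trauma and 13.1, 14.2, 14.1 and 14.3 with TGF-β1. It fell by 0.39 (SE 0.06, adjusted p = 0.0017) in Trauma+TGF-β1 against Control, and the steps between had log2 fold changes of -0.20 and -0.19 (adjusted p = 0.081 and 0.0546). Beside these, the Kv4 pore Kcnd3 rose against Control, as given above. Kcnip1 and Kcnip4 were not called.

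**Figure D4:**
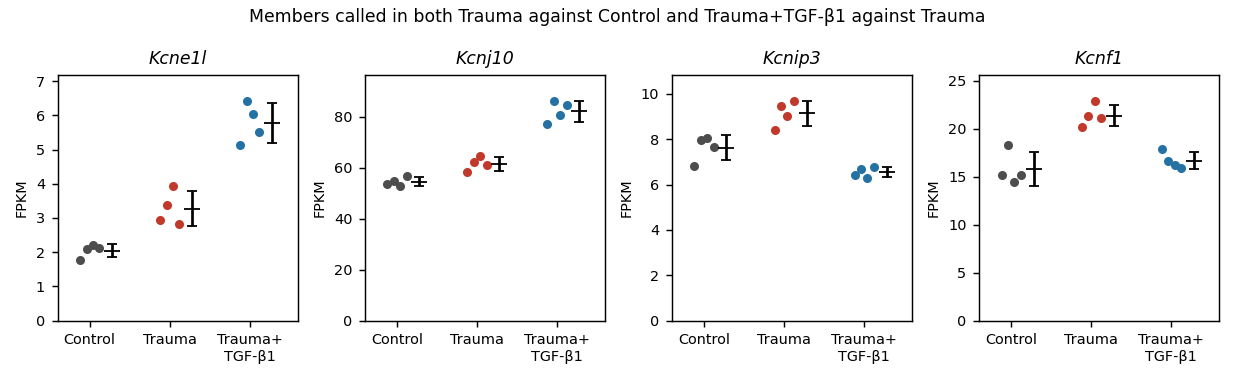
FPKM in each library of the 4 members called both in Trauma against Control and in Trauma+TGF-β1 against Trauma, with the mean and SD of each group to the right of its points. Kcne1l and Kcnj10 step up from Control to Trauma and again with TGF-β1, whereas Kcnip3 (means of 7.62, 9.14 and 6.55 FPKM) and Kcnf1 (15.8, 21.4 and 16.7 FPKM) are highest in Trauma.

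Kv beta subunits bind Kv1 channels from the inside of the cell and can speed their inactivation. Kcnab2 had 17.6, 18.2, 20.8 and 20.2 FPKM in Control, 16.8, 17.5, 16.6 and 17.0 in Trauma and 16.2, 14.4, 16.2 and 15.0 with TGF-β1. The 3 groups did not overlap, and it fell by 0.31 (SE 0.06, adjusted p = 0.0051) in Trauma+TGF-β1 against Control. Kcnab3 had 4.45, 5.09, 5.37 and 4.33 FPKM in Control, 3.88, 3.72, 3.78 and 4.13 in Trauma and 3.61, 3.41, 3.99 and 3.45 with TGF-β1. Both injured groups lay below Control. Kcnab3 fell by 0.30 (SE 0.08, adjusted p = 0.0497) in Trauma and by 0.40 (SE 0.08, adjusted p = 0.0068) in Trauma+TGF-β1, each against Control. The first of these was lost with voom (adjusted p = 0.126) and without any single library other than Control 1 and 4 and Trauma+TGF-β1 3 (adjusted p = 0.0612 to 0.125), and the second was kept under every alternative. The value of Kcnab2 with the GC correction was -0.18 (adjusted p = 0.0223). Kcnab1, at 1.57, 1.56 and 1.59 FPKM, was not called.

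The promoters of the 4 members called both with injury and with TGF-β1 after injury are shown, because these genes moved at both steps. RefSeq promoters (build GRCm38.p6) were given for 47 of the 67 tested members, and each holds 250 bases before and 50 bases after the start of a transcript. Capitals mark, on either strand, the letters TGANTCA of AP-1 (the Fos and Jun site), TGACGTCA of CRE (the CREB site) or CAGAC of the SMAD box, read as GTCTG on the other strand. SMAD proteins carry the TGF-β1 signal to the nucleus. The last motif was added after the values had been seen, and a SMAD box can overlap the last letters of an AP-1 match. The sequences lie at chrX:142306149-142306448 on the minus strand (Kcne1l), chr2:127522045-127522344 on the minus strand (Kcnip3, the most upstream of 3 starts), chr1:172340960-172341259 on the plus strand (Kcnj10) and chr12:17176839-17177138 on the minus strand (Kcnf1), and are written 5′ to 3′ along the gene:
Kcne1l: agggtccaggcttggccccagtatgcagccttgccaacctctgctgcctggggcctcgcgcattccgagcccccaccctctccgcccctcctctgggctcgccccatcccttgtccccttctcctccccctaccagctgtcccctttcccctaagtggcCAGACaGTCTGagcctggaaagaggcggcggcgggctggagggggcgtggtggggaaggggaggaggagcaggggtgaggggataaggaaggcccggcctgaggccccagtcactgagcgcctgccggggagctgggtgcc
Kcnip3: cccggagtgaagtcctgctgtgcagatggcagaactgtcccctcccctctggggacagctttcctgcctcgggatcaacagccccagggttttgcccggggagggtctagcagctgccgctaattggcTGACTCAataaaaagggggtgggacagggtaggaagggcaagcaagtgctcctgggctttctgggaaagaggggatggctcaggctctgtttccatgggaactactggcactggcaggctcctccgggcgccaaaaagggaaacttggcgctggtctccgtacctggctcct
Kcnj10: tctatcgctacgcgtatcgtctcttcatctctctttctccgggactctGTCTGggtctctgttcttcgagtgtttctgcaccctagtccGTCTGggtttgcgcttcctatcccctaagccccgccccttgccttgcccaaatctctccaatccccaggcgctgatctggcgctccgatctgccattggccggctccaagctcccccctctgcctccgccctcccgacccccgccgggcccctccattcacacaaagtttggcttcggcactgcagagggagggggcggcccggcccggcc
Kcnf1: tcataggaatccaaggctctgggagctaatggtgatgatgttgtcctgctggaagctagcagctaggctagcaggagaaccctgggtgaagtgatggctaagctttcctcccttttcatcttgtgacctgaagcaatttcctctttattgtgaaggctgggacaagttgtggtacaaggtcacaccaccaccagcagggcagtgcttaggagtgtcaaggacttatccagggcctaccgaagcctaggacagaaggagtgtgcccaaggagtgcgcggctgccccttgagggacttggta
Kcne1l holds 2 SMAD boxes, 91 and 85 bases before the RefSeq start and on opposite strands, and Kcnj10 holds 2, at 202 and 161 bases before it. For Kcne1l alone of the 4, the gene as counted here begins upstream of the RefSeq start, at chrX:142306294 on the minus strand. Both of its SMAD boxes therefore lie inside the counted gene and not before it. Kcnip3 holds an AP-1 match at 122 bases before the start, and Kcnf1 holds no match. A SMAD box is short and stands in 49.6% of the 32851 promoters of this length, and in 51.4% of the 70 that belong to members. The AP-1 letters stand in 7.81% of all promoters and in 3 of the 70, and the CRE letters in 1.79% of all and in none of the 70. These are matches of letters and not shown binding sites.

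Beyond the rule that chose them, the tested members were long and rich in GC. Their median exon length was 4833 bases against 3865 for all genes tested, and the median GC content of their longest transcript was 52.2% against 49.6%. GC content ran with the differences of Trauma+TGF-β1 from the other groups. Across the 67 members, Spearman's rho between GC content and log2 fold change was -0.025 in Trauma against Control, -0.55 in Trauma+TGF-β1 against Trauma and -0.46 in Trauma+TGF-β1 against Control. Over all 14699 tested genes with a known GC content the values were 0.088, -0.465 and -0.359. Of the 31 members named by rule, 12 share exon bases with another gene. Genes share libraries and are not replicates, and these values are descriptions. The 13 members called lower in Trauma+TGF-β1 than in Control had a median GC content of 57.4%, and the 5 called higher had 49.1%. With the loess correction of each library for GC content, 9 of these 18 calls and 4 of the 9 with TGF-β1 against Trauma were lost, and none of the 10 in Trauma against Control. Calls among all genes tested also fell with it in the comparisons of Trauma+TGF-β1, as given above.

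**Figure D5:**
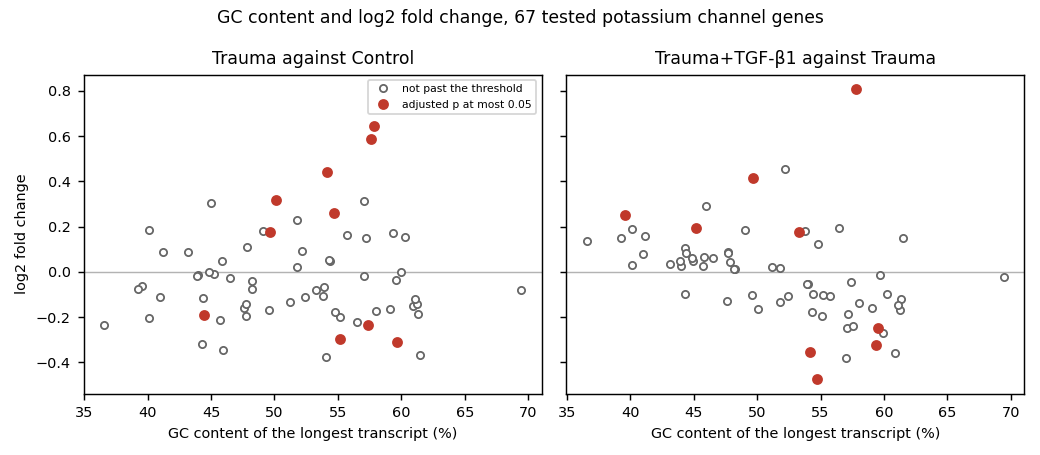
Log2 fold change (limma) against GC content of the longest transcript (%) for the 67 tested potassium channel genes, with called genes filled. In Trauma against Control (left) rho was -0.025, and in Trauma+TGF-β1 against Trauma (right) they fall from left to right (rho of -0.55), with Kcne1l at 0.81 above the others at its GC content of 57.8%.

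Proteins that bind potassium channels, and the pumps and cotransporters that keep the potassium gradient, do not fall under the symbol rule. Of 19 partner genes, 16 were tested. In Trauma against Control, Cntnap2, which holds Kv1 channels beside the node of Ranvier, was the only partner called (log2 fold change -0.28, adjusted p = 0.0070). With TGF-β1 against Trauma, Cntnap2 and Ank3 (ankyrin-G, the anchor of Kv7 channels at the axon's initial segment) rose by 0.20 and 0.21 (limma adjusted p = 0.0257 and 0.0165). The scaffold gene Dlg4 and Vapb, whose product binds Kv2 channels, fell by 0.24 and 0.17 (adjusted p = 0.0406 and 0.0153). In Trauma+TGF-β1 against Control, Ank3 and Dlg2 rose by 0.16 and 0.19 (adjusted p = 0.0350 and 0.0307) and Vapb fell by 0.20 (adjusted p = 0.0042). Of 11 pump and cotransporter genes, 10 were tested. Atp1b2, a beta subunit of the sodium pump, rose by 0.24 in Trauma and by 0.36 in Trauma+TGF-β1, each against Control. Slc12a5, the neuronal potassium-chloride cotransporter KCC2, fell by 0.27 in Trauma+TGF-β1 against Control. Of all genes tested, 5.82%, 12.3% and 16.3% were called in the 3 comparisons, and counts from 16 and 10 genes are too small to read as differences from these shares. The counts of calls in these lists moved with the settings, as given under the processing.

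Markers of other cells the cultures could hold were also followed. The 8 inhibitory neuron markers summed to 200 to 220 FPKM in Control, 241 to 269 in Trauma and 228 to 254 with TGF-β1, and the 7 excitatory neuron markers to 247 to 266, 257 to 266 and 255 to 260. Of 10 oligodendrocyte lineage markers 7 were tested, with sums of 53.8 to 59.8, 69.6 to 77.2 and 66.6 to 73.5 FPKM. Microglia markers were low, with 5 of 10 tested and sums of 20.9 to 24.9, 31.4 to 40.3 and 25.8 to 29.6 FPKM, and so were vascular and fibroblast markers, with 2 of 8 tested and sums of 2.37 to 3.03, 2.80 to 3.97 and 3.66 to 4.36 FPKM. In Trauma against Control, 3 inhibitory, 3 oligodendrocyte lineage and 3 microglia markers were called up and none down in these 5 lists. With TGF-β1 against Trauma, 1 marker was called down in each of the inhibitory, excitatory, oligodendrocyte lineage and microglia lists, and 1 excitatory marker was called up. In Trauma+TGF-β1 against Control, 4 inhibitory, 2 excitatory and 3 oligodendrocyte lineage markers were called up, and 1 inhibitory and 1 excitatory marker down. No vascular or fibroblast marker was called in any comparison. The part of these cells in the values of the potassium channel genes was not tested.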

How the data were processed

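RNA from 12 libraries of mouse cortical neuron cultures was sequenced as paired ends. Per the labels and methods, the authors aligned reads with HISAT2 (2.0.5, from the submitters' processing notes), assembled them with StringTie, counted them with featureCounts and deposited FPKM values for build mm10, together with the length of each gene (other). The methods speak of 6 samples, and the table holds 12 libraries. The authors' own test was DESeq2 and was not run here. FPKM multiplied by gene length gave whole reads (within 0.01 read) for 100% of values.

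Deposited FPKM were scaled between libraries by median-of-ratios factors. The log2 of the scaled value plus 0.1 was fitted by limma 3.58.1 (R 4.3.3; functions lmFit, contrasts.fit and eBayes, trend on) over all 12 libraries, with no block, for the 15016 genes with a mean of at least 0.5 FPKM, with Benjamini-Hochberg adjustment in each comparison. The fit was tested on simulated data for Trauma against Control with 200 of 15016 genes changed. At a log2 change of 0.5, 17% of the changed genes and 0 unchanged genes were called, and at a change of 1 these were 82.5% and 8. The simulated counts had the same spread setting for every gene, which was not estimated from these libraries. These shares are therefore not the power of the fit on the real genes. Sums of marker levels were compared with an exact permutation test over libraries. Coordinates and lengths are those of the file, and 91 of 93 members had the same start and end in GENCODE M21, which gave GC content and exon overlaps. Members named are those called in any comparison and the one with the highest level in each subfamily, together with the called genes of the partner and transport lists. Other names were chosen after their values were seen. Results of a few genes are left out of the text and plots and are not reported here, though counts include them. The members and lists were chosen with earlier results of these data known. Python 3.11.15, pandas 2.3.3, numpy 2.4.6, scipy 1.17.1 and matplotlib 3.10.9 were used. The alternatives were other pseudocounts (1 and 0.01), filters (none and 1 FPKM), scalings, eBayes options, fits of 2 groups or of protein_coding genes, voom on the recovered reads, corrections for gene length and GC content, the replicate number as a block, and each library left out.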

Additional observations from a re-analysis of the deposited data

Results flagged for a closer look

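In each group of 4 libraries, the distance of the highest or lowest library from its nearest neighbour was divided by the range of the group, for the 31 named potassium channel genes. Of 93 groups, 9 had a library past Dixon's critical value for 4 libraries, where chance gives about 1 in 20. Kcnip2 was lowest in Control library 1, at 16.4 FPKM where the other Control libraries had 19.0 to 19.1, and lowest in Trauma+TGF-β1 library 1, at 13.1 FPKM against 14.1 to 14.3. Kcng1 was highest in Trauma+TGF-β1 library 1, at 6.45 FPKM against 4.74 to 5.01. Kcna2 was lowest in Control library 3, at 6.91 FPKM against 7.82 to 7.99, and highest in Trauma library 2, at 8.32 FPKM against 7.77 to 7.79. Kcnc1 was highest in Trauma+TGF-β1 library 3, at 15.3 FPKM against 13.9 to 14.0. Kcnd2 was lowest in Trauma library 4, at 16.7 FPKM against 18.0 to 18.2, and highest in Trauma+TGF-β1 library 2, at 20.2 FPKM against 18.6 to 18.7. Kcnq3 was lowest in Trauma+TGF-β1 library 1, at 9.48 FPKM against 10.4 to 10.6. Of the 9, 1 lay in Control library 1.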

How the results depend on the processing

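Of the 37 calls of potassium channel genes, 13 were kept under all 28 alternatives, 24 were lost under at least 1 and none changed direction. The correction for GC content ended 13 calls, that for gene length 7, quantile normalization and voom 4 each, and the fit to protein_coding genes alone 0. The replicate block ended 8. Deviations of libraries with the same replicate number correlated at -0.0088 to 0.0762. Libraries with different numbers were not compared in this way, so that whether the numbers mark pairs is not decided. With the replicate block the calls were 5 up and 3 down, 3 up and 5 down, and 6 up and 13 down in the order of the report. Over all genes tested they were then 476 and 305, 568 and 958, and 929 and 1291. In Trauma against Control, the 10 calls became 4 without a filter on low values and 5 in a fit of the 2 groups, with 4 to 9 when a library was left out. In Trauma+TGF-β1 against Trauma, the 9 became 5 with the GC correction, 5 with the GC correction and the replicate block and 4 with the gene length correction and the block, with 4 to 11 when a library was left out. In Trauma+TGF-β1 against Control, the 18 became 11 in a fit of the 2 groups and 8 with the GC correction and the replicate block, with 11 to 21 when a library was left out. Calls among all genes tested moved with these settings too, here from 1029 up and 1420 down to 616 and 898 in the fit of the 2 groups. With the GC correction and block they were 831 and 926 here, and 311 and 477 in Trauma+TGF-β1 against Trauma. That comparison had 292 and 513 with the gene length correction and block. Trauma against Control had 337 and 192 in the fit of the 2 groups. Without a filter, where 33142 genes were fitted, it had 360 and 202. For partner and transport genes, the 3 calls in Trauma against Control became 5 with the GC correction and block. The 5 with TGF-β1 against Trauma became 8 with quantile normalization, 10 with voom, 8 in a fit of the 2 groups, 8 with protein_coding genes alone, 2 with the gene length correction and block, 3 with the GC correction and block, and 3 to 9 when a library was left out. The 7 in Trauma+TGF-β1 against Control became 3 without a filter, 4 without a trend, 3 in a fit of the 2 groups and 3 to 14 when a library was left out. The cause of these moves was not tested. The marker sums kept their direction with each library left out (astrocyte 75.7 to 96.9 and 59.9 to 69.5 FPKM in Trauma and Trauma+TGF-β1 against Control, neuron -192 to -157 and -251 to -234), where the smallest exact permutation p is 0.0571. Without Tubb3, an alternative chosen after seeing the data, the neuron sum was 33.7 FPKM higher with TGF-β1 than in Trauma (-68.7 with Tubb3), and its difference from Control with TGF-β1 was -29.3 FPKM (-243 with Tubb3), no longer past the threshold. Tubb3 alone differed by -102 and -213 FPKM. The median log2 fold change of the members in Trauma+TGF-β1 against Trauma was -0.033 with the gene length correction. At these depths, 26 members were too low to test.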
